A study of Rattus norvegicus with 4 samples.

Results

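Day 9 was set against day 0 in the hindlimb footpad skin of Sprague Dawley rats, with 1 library a day, in a study of radiation dermatitis. The day 0 library came from skin collected before irradiation by the protocol's schedule. The day 9 library came from skin irradiated 4 times at 10 Gy, on days 1, 2, 4 and 5, by electrons of 9 MeV at 500 cGy/min. These are 2 of the 4 libraries of the series, whose days 3 and 6 are given only as values beside them. Every gene row was compared, chosen by its identifier in the files and not by its values: 17243 of the 18957 rows of the series had a count on day 0 or day 9. The libraries hold digital gene expression tags, each a 21-base stretch that begins with CATG, and a gene's count is the number of copies of its tags. The sample descriptions disagree with the protocol, since that of day 0 names day 1 as its collection and that of day 9 names an irradiation on day 5 alone. The titles were followed.

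The labels give no animal, sex, pooling, batch or time of day, so the difference between animals and the difference between days cannot be told apart. All intervals below are exact 95% intervals of a ratio of 2 counts and cover counting error only, not the spread between animals. Tags amplified by PCR without molecular identifiers are not independent molecules, so the intervals can be too narrow even for counting error. In bulk skin, fewer cells of a type and less RNA per cell cannot be told apart. The day 0 and day 9 libraries were close in depth, with 1982608 and 1952921 gene counts from 3592019 and 3442555 sequenced tags. The libraries carried their tissue's markers: the keratinocyte genes Krt14, Krt1 and Krt10 summed to 35025 counts on day 0 and 35636 on day 9, and 5 of 5 fibroblast genes were detected in both. Krt5, Il6 and Cd207 had no row and were not analysed here.

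Epidermis renews itself from dividing basal keratinocytes, whose daughters move up, change keratins and end as the cornified layer. Ionizing radiation breaks DNA, activates the transcription factor p53 and stops the division of basal cells, so that the supply of new cells falls behind and the skin becomes inflamed. Injured or overgrowing epidermis is known for raising keratins 6, 16 and 17, antimicrobial proteins and alarm cytokines.

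The tags that carry the main differences are shown first, because each count below is the number of times such a stretch was read. The capitals mark the CATG at which a tag starts, and each sequence is the most abundant tag of its row over both days.

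Keratin 6A row: CATGtgatgtctttgcttttc
Krt17: CATGaaagcatccctggaggg
Krt16: CATGaaagcatccttggagaa
Defb4: CATGaaaatgcacaaaacaaa
S100a9: CATGtaacatctgcccaacca
Stfa3: CATGaacaatatttgtccagc
Ccng1: CATGctttgggtacacctttc
Col1a1: CATGgactttggaaaacattt
Krt24: CATGgaactgaggcgcacagt
Dapl1: CATGctccagcagtgaaagct

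The keratin 6A tag was read 239 times on day 0 and 60573 times on day 9, and it made up 90.9% of its row's day 9 count. A different tag of that row, CATGttgtatttggtttccag, was read 187 times on day 0 and 5143 times on day 9, so both main tags of the row pointed the same way. The remaining tags of the row with at least 10 copies were read at most 104 times each, and many differ from the main tag by a single letter. Krt16 and Krt17 have near-identical stretches, and their main tags differ in 3 bases, shown in capitals.

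Krt16: catgaaagcatccTtggagAA
Krt17: catgaaagcatccCtggagGG

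Krt16 did not rest on this stretch alone: 2 other Krt16 tags were read 93 and 39 times on day 9 and never on day 0.

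A gene was called higher or lower on day 9 where the ratio of scaled counts was at least 2, the higher library held at least 50 counts and the interval excluded 1. This is a rule of size, since 1 library a day leaves no spread between animals for a test, and "higher", "rose", "lower" and "fell" are used below for genes that passed it. Of 5345 rows with enough counts, 1129 (21.1%) were called, 571 higher (10.7%) and 558 lower (10.4%). The rows just inside the rule had ratios of 2.00 on either side. The median log2 ratio over these rows was -0.01, with the 10th percentile at -1.02 and the 90th at 1.05. At least 4-fold differences were seen in 113 rows that rose and 77 that fell, and at least 10-fold differences in 28 and 15. The rows called higher thus reached larger ratios than those called lower, although both directions held nearly as many rows.

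**Figure D1:**
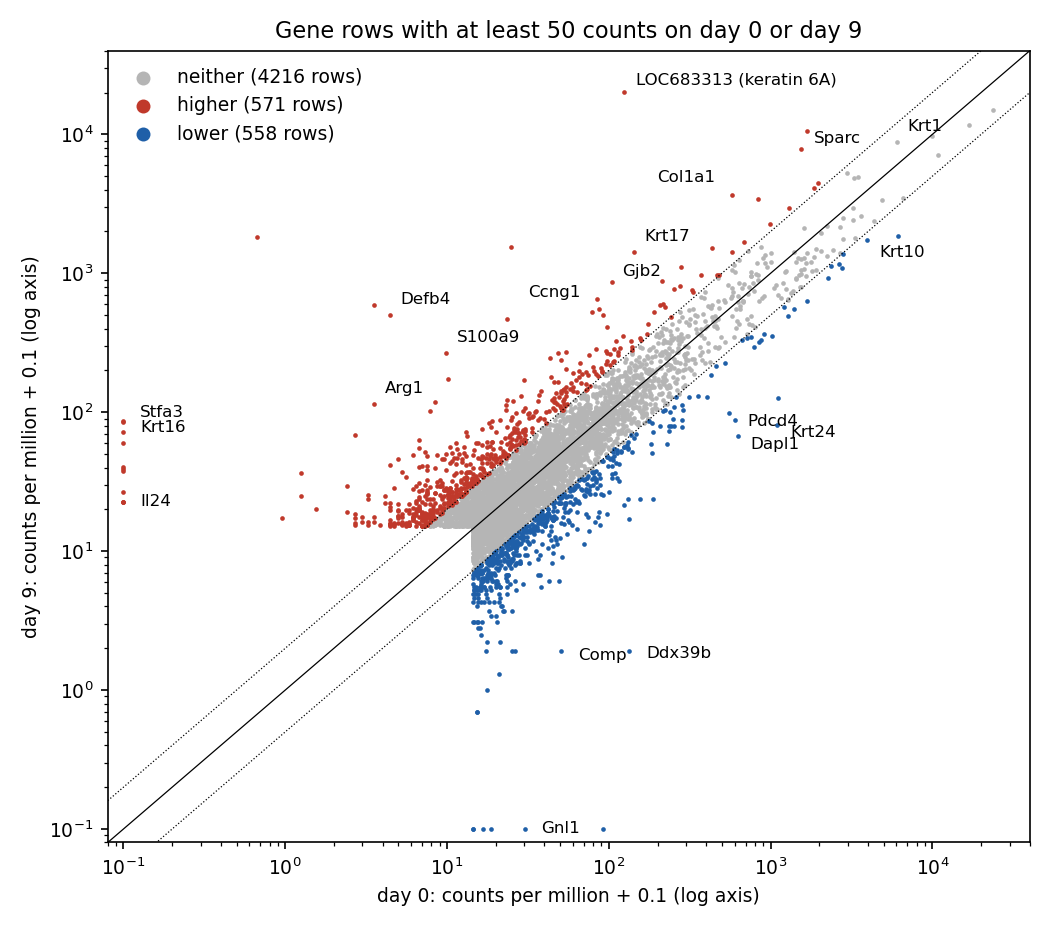
CPM (counts scaled to the tags kept in the library) plus 0.1 on day 0 (horizontal log axis) and day 9 (vertical log axis) for the 5345 gene rows with at least 50 counts in either library, each point 1 row, red for the 571 called higher, blue for the 558 called lower and grey for the rest. The solid line marks equal values and the dotted lines a 2-fold difference, and the keratin 6A row is the highest of the red points.

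The stress keratins stood at the top of the comparison. The keratin 6A row (LOC683313 in the files), a type II keratin of injured epidermis, had 432 counts on day 0, 1071 on day 3, 5316 on day 6 and 66660 on day 9. It was 162-fold higher on day 9 than on day 0 (147 to 178), and went from 0.0218% to 3.41% of all gene counts. Krt17, a type I keratin of injured and appendage epithelium, had 499, 246, 262 and 4743 counts and was 9.97-fold higher (9.10 to 10.96). Krt16, a type I partner of keratin 6, was at 0 on days 0 and 3, at 37 on day 6 and at 239 on day 9, which is at least 83.6-fold higher against a floor of 3 counts. Thus all 3 stress keratins measured were higher on day 9, while the basal keratin Krt14 stood at 295 and 353 counts (1.26-fold, 1.07 to 1.47) and was not called. The Krt14 row was small, and its most abundant tag had 107 copies on day 0, against 20463 for that of Krt1. Whether the row holds all tags of Krt14 was not tested.

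Of 5 measured antimicrobial and alarm protein genes 3 were higher and none lower, with a median log2 ratio of 1.70. Defb4, a beta-defensin that kills microbes at epithelial surfaces, had 15, 112, 551 and 1669 counts on days 0, 3, 6 and 9 and was 113-fold higher (70.6 to 209). S100a9, a subunit of calprotectin, had 34, 43, 34 and 891 counts and was 27.1-fold higher (19.5 to 40.0). Its partner S100a8 had 39, 17, 10 and 122 counts and was 3.26-fold higher (2.27 to 4.84). Defb4 was thus already above day 0 on days 3 and 6, whereas S100a9 stood apart on day 9 alone and S100a8 was lower on days 3 and 6 than on day 0. Defb1, a defensin made at rest, had 227 and 357 counts on days 0 and 9 and was not called. Calprotectin is made by neutrophils as well as by keratinocytes. Of 6 defining neutrophil markers, 3 had a row and 1 was detected, with 9 counts on day 0 and 6 on day 9. A longer neutrophil list summed to 57 counts on day 0 and 137 on day 9, and all 3 of its measured members had ratios above 1, with 1 called higher. That member, Cybb, the oxidase subunit that macrophages also make, went from 40 to 82 counts (2.14-fold higher), and Mmp9 and Ncf1 had too few counts for the rule. The part of neutrophils in the calprotectin counts was not tested. Among other S100 genes, S100a4 went from 93 to 209 counts (2.35-fold higher) and S100a10 from 1674 to 3220 (2.02-fold higher, at the edge of the rule), and the other 4 of 6 measured were not called.

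Among keratinocyte cytokines and chemokines 4 of 10 measured members were higher, none was lower, and 2 ratios were below 1. The most abundant of them, Cxcl14, a chemokine made at rest, had 1352 and 1143 counts, and Il36rn, an antagonist, 534 and 830, and neither was called. Il36g, an interleukin-1 family cytokine of keratinocytes, had 29, 70, 160 and 393 counts on days 0, 3, 6 and 9 and was 14-fold higher (9.75 to 21.5). Il24, an interleukin-10 relative known in wounds, was at 0 counts on days 0, 3 and 6 and at 75 on day 9, at least 26.2-fold higher, although its main tag was read once on day 0 in the raw list. Il1rn, the interleukin-1 receptor antagonist, went from 373 to 781 counts (2.2-fold higher). Il33, an alarm cytokine of the nucleus, went from 38 to 75 counts (2.06-fold higher). Il1rn and Il33 lay near the edge of the rule, unlike Il36g and Il24. Il1b had 6 counts on day 0 and 35 on day 9 (5.73-fold, 2.55 to 17.8), too few for the rule. Cxcl1, a neutrophil chemokine, was at 0 and 11. The growth factor ligands Areg and Ereg, which bind the EGF receptor, had 2 and 46 counts (19.5-fold, 6.31 to 205) and 10 and 48 counts (4.85-fold, 2.52 to 11.2). Both missed the minimum of 50 counts by little. Hbegf was at 3 and 7 counts. Tgfa, a further ligand, had 61 and 105 counts and was not called. Of the 5 measured members of this list none was higher and 2 were lower, the receptor genes Erbb2 (52 to 18 counts, 2.70-fold) and Fgfr2 (147 to 35, 3.96-fold), the latter a receptor for fibroblast growth factors.

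Protease inhibitors of the epidermis were higher in 6 of 17 measured members and lower in none. Stfa3, a rodent stefin that inhibits cysteine proteases, was at 0, 7, 17 and 287 counts on days 0, 3, 6 and 9, at least 100-fold higher. Related rows without a gene symbol gave the same picture: a row described as stefin-2-like had 0, 2, 2 and 201 counts (at least 70.3-fold higher), and one described as stefin-3-like, named here after its values were seen, had 86, 96, 97 and 5142 (62.4-fold higher). Stefin genes are near-identical copies of each other, so how their tags were divided among rows is uncertain. Serpinb3, a serpin raised in inflamed epithelium, went from 104 to 568 counts (5.71-fold higher), and Serpinb2, a plasminogen activator inhibitor, from 218 to 570 (2.74-fold higher). A row described as serpin B4-like was at 0 on day 0 and 125 on day 9, at least 43.7-fold higher. The abundant inhibitors Cst3 (5128 and 4272 counts) and Cstb (2113 and 3389) were not called.

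The differentiated layers split. Among suprabasal keratins and their junction genes, 5 of 12 were lower, 1 was higher and the median log2 ratio was -0.70. Krt24, a keratin of differentiating cells, had 3841, 573, 295 and 269 counts on days 0, 3, 6 and 9 and was 13.6-fold lower on day 9 (12.02 to 15.5). Krt10, the main type I keratin of the spinous layer, had 13717, 4763, 10006 and 5777 counts and was 2.26-fold lower (2.19 to 2.33). Its type II partner Krt1 had 21013, 23380, 38510 and 29506 counts and was not called, at 1.47-fold higher values (1.45 to 1.5). The members of this keratin pair thus lay on opposite sides of 1. Krt2, of the upper layers, fell from 798 to 195 counts (3.89-fold), and Krt9, the keratin of palms and soles, had 153, 559, 6 and 40 counts and was 3.61-fold lower. Jup, the junction protein plakoglobin, fell from 2473 to 1138 counts. Dsg3, a desmosomal cadherin of the lower layers, was the member that rose, from 27 to 66 counts (2.54-fold). Dapl1, a gene of differentiating epithelium, had 2190, 728, 453 and 223 counts and was 9.34-fold lower (8.15 to 10.8).

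Cornified envelope genes moved the other way where they moved, with 4 of 19 higher, none lower and a median log2 ratio of -0.20. Sprr1a, a small proline-rich envelope protein, had 739, 307, 160 and 2909 counts on days 0, 3, 6 and 9 and was 4.13-fold higher (3.81 to 4.49). It was below day 0 on days 3 and 6 and highest on day 9. Cnfn, or cornifelin, went from 658 to 1753 counts (2.80-fold higher), Lce1m, a late envelope protein, from 96 to 234 (2.55-fold higher), and Klk7, a protease that frees cells from the surface, from 542 to 1140 (2.21-fold higher). Dmkn and Sbsn, secreted proteins of the upper epidermis, had 11251 and 8109 counts and 5346 and 4219 counts and were not called.

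**Figure D2:**
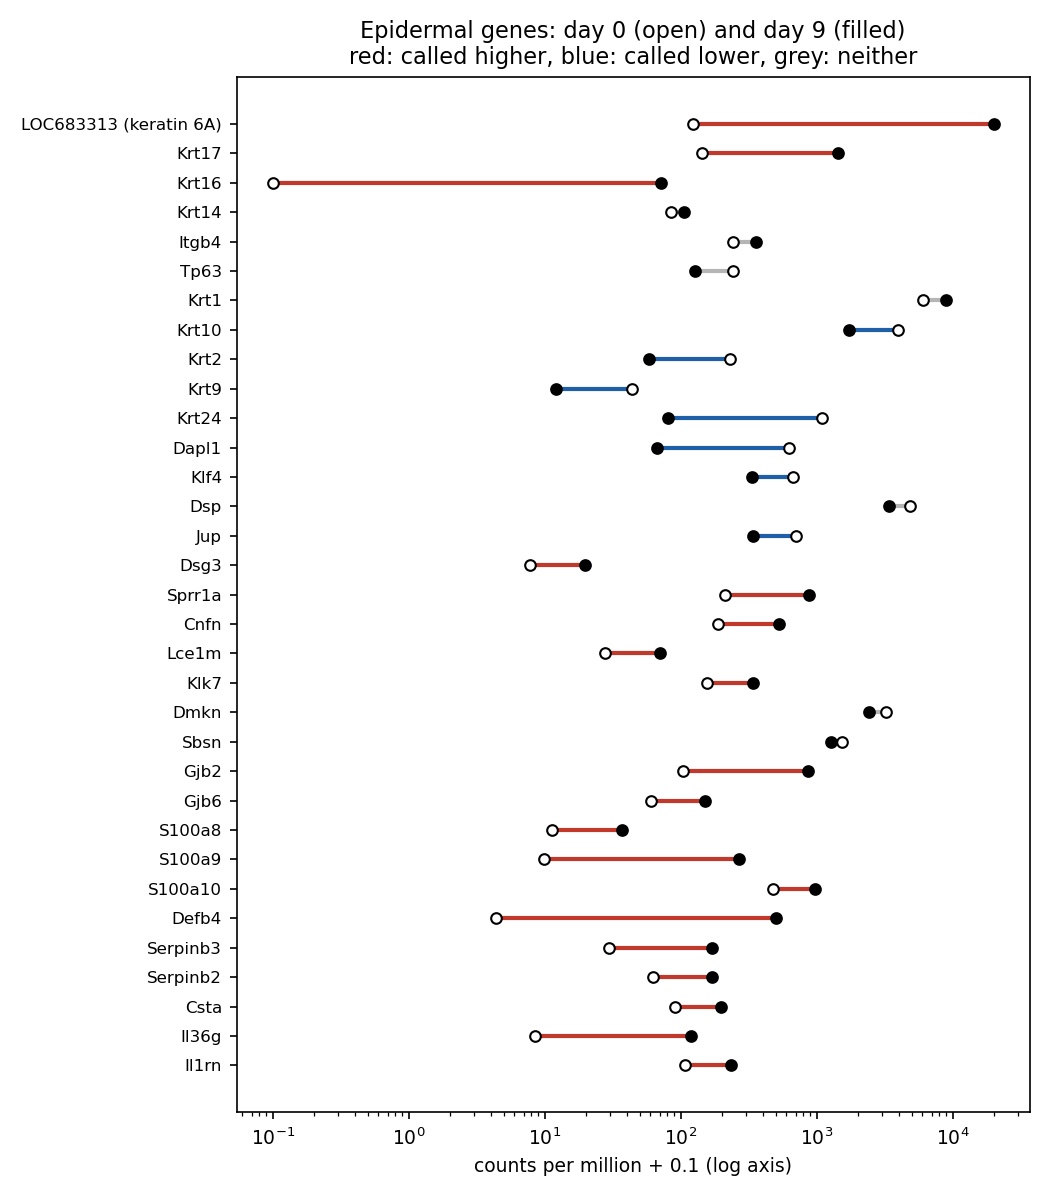
CPM plus 0.1 (log axis) of 33 epidermal genes on day 0 (open circles) and day 9 (filled circles), joined by a red line where called higher, blue where called lower and grey where neither. Keratin 6A, Krt16, S100a9, Defb4 and Il36g moved right by the widest margins, while Krt24 and Dapl1 moved left and Krt1 and Krt14 stayed within a factor of 2.

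At the base of the epidermis 1 of 10 genes was higher and none lower, with a median log2 ratio of 0.27. Itgb4, an integrin of hemidesmosomes, had 838 and 1187 counts, and Tp63, the transcription factor of basal cells, had 845 and 425 (1.89-fold lower values, 1.68 to 2.13), and neither was called. The junction and integrin list held 24 measured members, of which 2 were called higher, 1 lower and 21 neither (median log2 ratio 0.09). Gjb2, the connexin 26 gene, had 364, 625, 978 and 2886 counts on days 0, 3, 6 and 9 and was 8.31-fold higher (7.46 to 9.31). Gjb6, the connexin 30 gene, went from 209 to 502 counts (2.52-fold higher). Gja1, the connexin 43 gene, had 2128 and 1830 counts and was not called. The integrin gene Itgb5 was the lower member, from 229 to 108 counts (2.02-fold, at the edge of the rule). Anxa1, an annexin that dampens inflammation, went from 953 to 2705 counts (2.98-fold higher).

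Genes that p53 switches on were higher in 8 of 19 measured members, with none lower and a median log2 ratio of 0.96. Ccng1, or cyclin G1, had 303, 1885, 1776 and 1831 counts on days 0, 3, 6 and 9 and was 6.33-fold higher (5.61 to 7.19). Mdm2, the ubiquitin ligase that limits p53, had 30, 129, 125 and 164 counts and was 5.66-fold higher (3.87 to 8.78). Cdkn1a, the p21 inhibitor of cell division, had 291, 1197, 1303 and 947 counts and was 3.41-fold higher (2.99 to 3.91). All 3 were raised in each library after day 0, 4 days after the irradiation on day 5 included. Bbc3, which encodes the death protein PUMA, had 23, 204, 194 and 81 counts and was 3.64-fold higher (2.30 to 6.16), nearer to day 0 on day 9 than on days 3 and 6. Sesn2, a stress-induced sestrin, went from 18 to 61 counts (3.49-fold higher). The abundant member Perp, a junction protein, had 7160 and 6509 counts and was not called. The count of higher members fell to 5 when members needed a mean of 50 counts.

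The 2 main tags of Cdkn1a, which differ at the base in capitals, were not read in the same shares in each library.

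Cdkn1a, with T: catgtattttggtcccTtccc
Cdkn1a, with C: catgtattttggtcccCtccc

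The tag with T was read 118, 0, 1206 and 457 times on days 0, 3, 6 and 9, and the tag with C 142, 1100, 0 and 397 times. Days 0 and 9 thus held both forms in similar numbers, day 3 only that with C and day 6 only that with T. Both forms were more abundant on day 9 than on day 0.

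Cell death genes were higher in 6 of 21 measured members and lower in none (median log2 ratio 0.70). Bax, which permeabilizes mitochondria and is itself a p53 target, went from 38 to 118 counts (3.23-fold higher). Ripk3, the kinase of necroptosis, went from 9 to 61 counts (6.80-fold higher, 3.51 to 16.3). These counts are low, and 3 members remained called where a mean of 50 counts was required. Gsdma, a gasdermin of skin, had 130 and 178 counts and was not called.

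Genes of DNA replication lay lower, with 7 of 33 called lower, none higher, a median log2 ratio of -0.65 and 26 of 33 ratios below 1. Pold2, a DNA polymerase delta subunit, had 225, 115, 230 and 76 counts on days 0, 3, 6 and 9 and was 2.81-fold lower (2.17 to 3.71). Ung, which removes uracil from DNA, had 123, 42, 54 and 33 counts and was 3.51-fold lower (2.40 to 5.39). Mcm2, of the replicative helicase, had 56, 53, 93 and 23 counts and was 2.29-fold lower. Pold2 and Mcm2 were as high on day 6 as on day 0 or higher, and lowest on day 9. With a mean of 50 counts required, 4 members were lower. Pcna, the sliding clamp, had 186 and 118 counts and was not called.

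Mitotic genes had few counts: 17 of 20 ratios were below 1 with a median log2 ratio of -0.72, but 1 passed the rule. That gene was Stmn1, which encodes the microtubule destabilizer stathmin, with 166, 28, 148 and 37 counts and a 4.23-fold lower value on day 9 (2.98 to 6.28). Cdk1, the mitotic kinase, had 88, 37, 174 and 78 counts, and Mki67, the proliferation marker, 31, 10, 55 and 29. Neither of these differed between day 0 and day 9 beyond its counting interval, and both were highest on day 6. Of 12 measured DNA repair genes 7 had enough counts for the rule, and 2 were lower and none higher. Among them was H2afx, a histone that marks broken DNA, which fell from 65 to 27 counts (2.27-fold).

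Of 29 collagen and matrix genes 10 were higher, none was lower, and the median log2 ratio was 0.87. Col1a1, the main chain of type I collagen, had 2001, 22815, 12663 and 12260 counts on days 0, 3, 6 and 9 and was 6.43-fold higher (6.13 to 6.75). Sparc, a collagen-binding matrix protein, had 5407, 41424, 29973 and 25980 counts and was 5.04-fold higher (4.90 to 5.19). Col3a1, of young and healing collagen, had 2909, 13937, 14463 and 11431 counts and was 4.12-fold higher (3.96 to 4.30). All 3 had risen by day 3, and on day 9 they stood below that day. Lox, which cross-links collagen, went from 23 to 134 counts (6.01-fold higher), and Eln, or elastin, from 175 to 796 (4.76-fold higher). Dcn, the proteoglycan decorin, had 10326 and 17676 counts (1.80-fold) and missed the rule.

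Among 20 remodelling genes 4 were higher. Mmp2, a gelatinase of fibroblasts, had 975, 5655, 4967 and 3688 counts on days 0, 3, 6 and 9 and was 3.97-fold higher (3.70 to 4.26). Its inhibitor Timp2 went from 1140 to 2528 counts (2.33-fold higher). Adamts1, a protease that cuts proteoglycans, had 23, 41, 43 and 185 counts and was 8.29-fold higher (5.46 to 13.7), and the related Adamts9 had 15, 37, 57 and 139 counts and was 9.45-fold higher (5.70 to 17.9). The ADAMTS genes thus stood highest on day 9, unlike the collagens and Mmp2. Mmp9, a gelatinase of leukocytes and moving keratinocytes, had 2 and 33 counts (14.1-fold, 4.43 to 149) and was too low for the rule. Of 20 measured TGF-beta, Wnt and Notch signalling genes 17 were not called, and the median log2 ratio was 0.06. In this group Notch1 (67 to 139 counts) and Fzd1 (21 to 57) rose, and Wnt4 (93 to 35) fell.

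Leukocyte genes gave small counts. Macrophage and monocyte genes were higher in 4 of 18 measured members and lower in none. Cd163, a scavenger receptor, had 22, 173, 110 and 76 counts on days 0, 3, 6 and 9 and was 3.57-fold higher (2.23 to 6.12). Aif1, an actin-binding protein of macrophages, had 85, 436, 161 and 204 counts and was 2.51-fold higher. Both were higher on day 3 than on day 9. Mrc1, the mannose receptor, went from 45 to 108 counts and Fcgr2b, an antibody receptor, from 13 to 51. The 8 defining macrophage markers summed to 776 counts on day 0 and 1155 on day 9. Defining T cell markers summed to 33 and 30 counts. Mast cell genes did not move together: the protease Cpa3 rose (98 to 221 counts), Cma1, or chymase, fell (84 to 35, but with its most abundant tag alone its log2 ratio was -0.22), and the other 3 of 5 were not called. Of 15 measured antigen presentation genes 3 were higher and none lower, with 7 ratios below 1 and a median log2 ratio of 0.10. The class II genes RT1-Db1 (253 to 534 counts) and RT1-Ba (222 to 463) rose. With the most abundant tag alone their log2 ratios were 0.40 and 0.21, so these calls rest on the other tags of the rows. Of 16 measured interferon response genes only 3 had enough counts for the rule, and none of these was called. Of the 16 ratios 10 were above 1, with a median log2 ratio of 0.28.

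Endothelial genes were higher in 3 of 14 members. Sele, or E-selectin, which catches leukocytes on activated vessels, had 66, 165, 211 and 287 counts on days 0, 3, 6 and 9 and was 4.54-fold higher (3.48 to 6.06). Icam1, an adhesion molecule for leukocytes, went from 27 to 96 counts (3.68-fold higher). Plvap, a protein of endothelial pores, had 365 and 543 counts and was not called, and the 4 defining endothelial markers summed to 102 and 110. Sele, Icam1 and Egfl7 (log2 ratio 1.16) thus rose while the sum of the 4 defining markers hardly differed. The 14 measured list members summed to 1293 counts on day 0 and 1911 on day 9, and 11 ratios were above 1. The beta-globin gene Hbb, which comes from red blood cells, had 35, 1510, 104 and 579 counts and was 17.1-fold higher on day 9, and how much blood stayed in each piece of skin is not in the labels.

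Muscle and fat genes differed widely among the 4 libraries. Skeletal muscle genes were higher in 10 of 26 members with none lower, and their counts summed to 8136, 14888, 140 and 14308 on days 0, 3, 6 and 9. Myot, or myotilin of the sarcomere, had 189, 534, 0 and 907 counts and was 5.03-fold higher (4.30 to 5.92). Myh2, a myosin heavy chain, had 982, 2139, 0 and 1613 and was not called. Muscle transcripts were nearly missing from day 6 alone. Cryab, a small chaperone abundant in muscle, followed with 232, 286, 22 and 754 counts. The adipocyte list had 3 of 13 measured members higher and 1 lower, 5 ratios below 1 and a median log2 ratio of 0.36. Adipoq (41, 448, 35 and 165 counts) and Fabp4 (132, 516, 302 and 470) were 4.19-fold and 3.73-fold higher, and Cidea, a lipid droplet protein gene, fell from 78 to 28 counts. The part of tissue makeup in the dermal differences was not tested.

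Regulators and stress genes moved in both directions. Nr4a3, an orphan nuclear receptor, had 4, 7, 8 and 83 counts on days 0, 3, 6 and 9 and was 19.5-fold higher (8.19 to 81.8). Cebpd, a transcription factor of acute inflammation, went from 188 to 682 counts (3.80-fold higher), and Atf3, of the stress response, from 43 to 145 (3.51-fold higher). In all, 6 of 27 immediate early genes were higher and 2 lower, the latter Fosb (60 to 17 counts) and Klf4 (2328 to 1108). Klf4, which drives terminal differentiation, lay at the edge, at a 2.00-fold lower value, and left the call under DESeq2 size factors, a larger prior count, the most abundant tag alone or centring on tag composition. Tfap2b, an AP-2 transcription factor, had 463, 157, 138 and 56 counts and was 7.82-fold lower (5.96 to 10.6). Hif1a, the oxygen-sensing factor, rose from 156 to 358 counts.

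Oxidative stress genes were higher in 7 of 25 measured members and lower in none, with a median log2 ratio of 0.20. Slc7a11, the cystine importer that feeds glutathione synthesis, had 8, 12, 19 and 98 counts on days 0, 3, 6 and 9 and was 12.2-fold higher (6.28 to 30.6). Hmox1, heme oxygenase, went from 26 to 107 counts (4.26-fold higher), and Txnrd1, thioredoxin reductase, from 112 to 301 (2.81-fold higher). The metallothionein gene Mt2A had 2346 and 2087 counts and was not called. Of 27 heat shock and endoplasmic reticulum genes 2 were higher, Cryab and Hspb1, and 2 lower, Hspa1b (881 to 360 counts) and Calr (1481 to 612), with a median log2 ratio of 0.04. The Hspb1 row holds both forms of a tag that a variant replaced between the libraries, described further on.

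**Figure D3:**
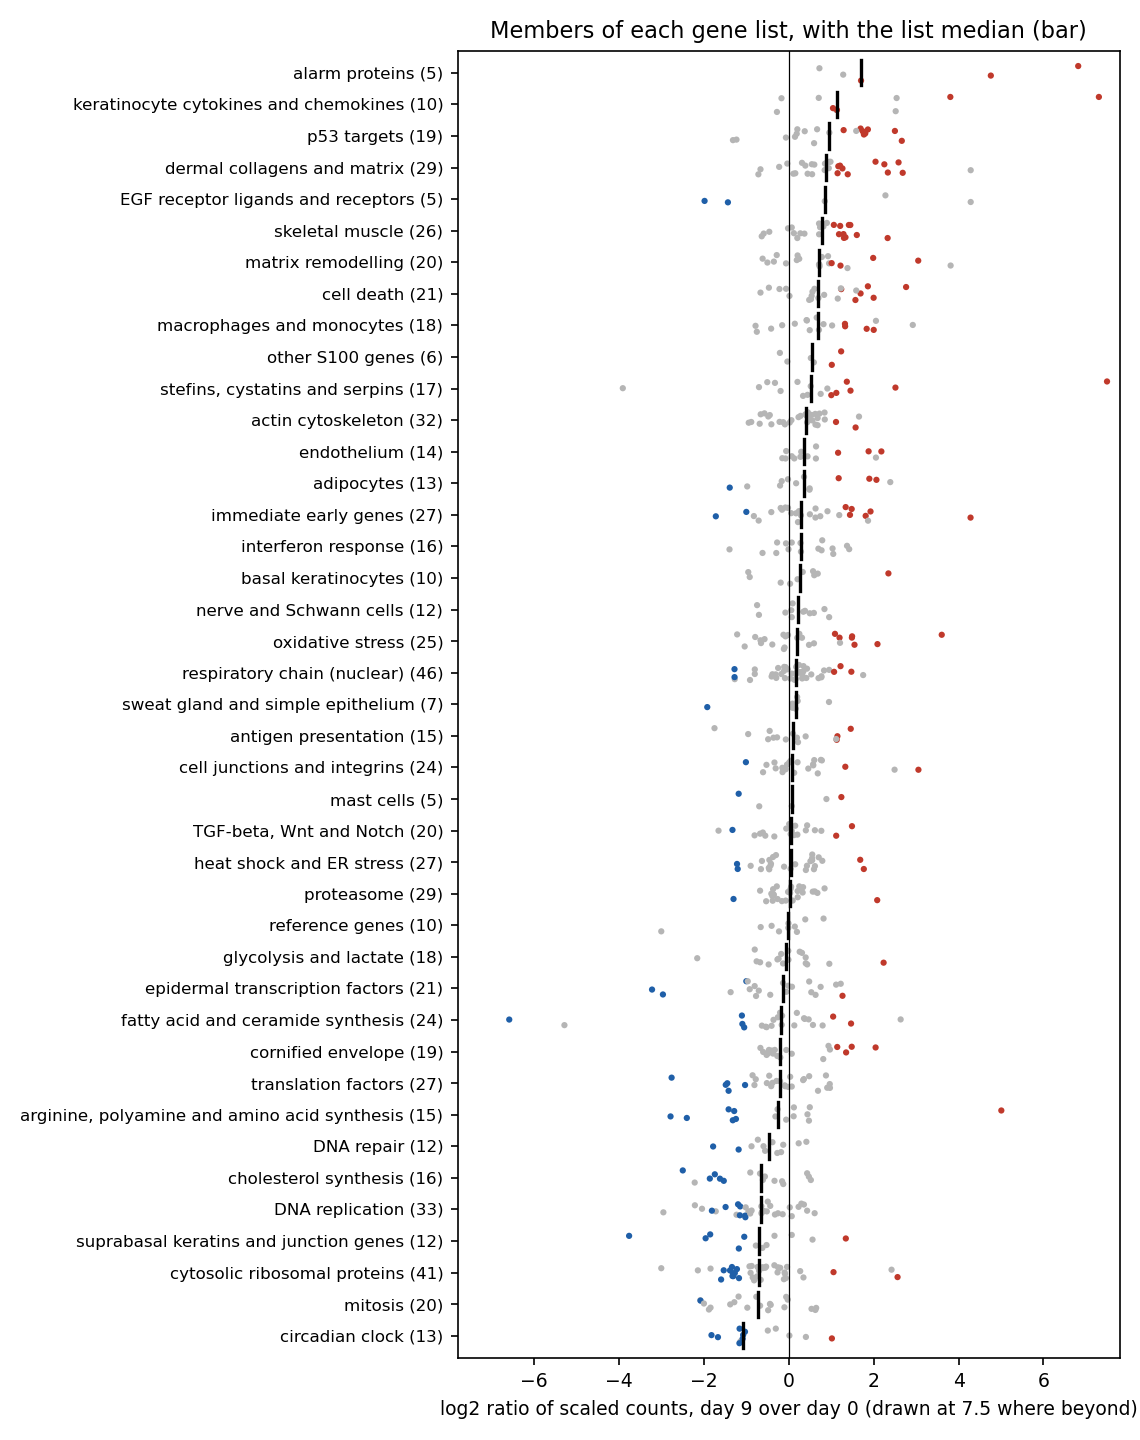
Log2 ratio of scaled counts, day 9 over day 0 (horizontal axis), of the measured members of each gene list with at least 5 of them (number in brackets), 1 point a gene, red for called higher, blue for called lower and grey for neither, with the list median as a black bar. Alarm proteins, cytokines, p53 targets and dermal matrix lie at the top and clock, mitosis, ribosomal protein, suprabasal and replication genes at the bottom, around an all-gene median near 0.

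Lipid and amino acid synthesis fell in several steps. Of 16 cholesterol synthesis genes 5 were lower and none higher (median log2 ratio -0.64). Hmgcs1, which makes HMG-CoA for the pathway, had 989, 364, 383 and 259 counts on days 0, 3, 6 and 9 and was 3.63-fold lower (3.17 to 4.19). Dhcr7, the last enzyme of cholesterol synthesis, had 305, 115, 113 and 51 counts and was 5.65-fold lower (4.22 to 7.82). Both had fallen by day 3. Fdps, which makes farnesyl diphosphate, went from 363 to 112 counts, and Mvd, which decarboxylates mevalonate, from 184 to 52. Among fatty acid and ceramide genes 4 of 24 were lower and 2 higher. Fasn (249 to 110 counts) and Acaca (88 to 39), which build fatty acids, lost their calls when ratios were centred on tag composition. Ugcg, which makes glucosylceramide for the skin barrier, rose from 117 to 309 counts (2.77-fold).

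In amino acid metabolism the direction differed by enzyme. Arg1, the arginase that cleaves arginine, had 12, 58, 71 and 383 counts on days 0, 3, 6 and 9 and was 32.2-fold higher (18.96 to 65.4). Ass1, which makes arginine's precursor, had 341, 98, 101 and 61 counts and was 5.29-fold lower (4.05 to 7.11). Phgdh, the entry enzyme of serine synthesis, had 148, 84, 132 and 20 counts and was 6.90-fold lower (4.40 to 11.9). The arginine-cleaving and arginine-making genes therefore stood on opposite sides, and Psph, the last step to serine, fell too (57 to 20 counts). In all 6 of 15 genes of this group were lower and 1 higher.

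Clock genes were lower in 7 of 13 measured members and higher in 1, with a median log2 ratio of -1.08, the lowest of the lists with at least 5 measured members that are drawn in the plot of lists. Tef, a clock output factor, had 285, 135, 135 and 85 counts on days 0, 3, 6 and 9 and was 3.18-fold lower (2.5 to 4.12). Cry2, a repressor of the clock, went from 139 to 59 counts (2.23-fold lower), and Bhlhe40, which also represses it, from 365 to 155 (2.24-fold lower). The row RGD1566380 went from 83 to 22. Dbp, an output gene of wide daily swing, had 1269 and 858 counts and was not called. Levels of such genes swing over the day, and the hour of collection is not in the labels.

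Of 41 cytosolic ribosomal protein genes 36 had ratios below 1, 10 were called lower and 2 higher, and the median log2 ratio was -0.70. Rps13 had 3556, 1282, 622 and 1170 counts on days 0, 3, 6 and 9 and was 2.90-fold lower (2.71 to 3.10). Rps19 had 2936, 1286, 686 and 1070 and was 2.61-fold lower (2.44 to 2.81). Rps26, the most abundant of those not called, had 22781 and 11624 counts, 1.87-fold lower values. Of 27 translation factor genes 5 were lower and none higher, with 10 ratios above 1 and a median log2 ratio of -0.21, or -0.03 with the most abundant tag alone. The elongation factor gene Eef2 fell from 874 to 297 counts, and the initiation factor gene Eif3f from 2754 to 981 (2.67-fold). Ribosomal protein genes have many processed pseudogenes with near-identical tags, so how their tags were divided is uncertain. Of 10 reference genes none was called, with a median log2 ratio of -0.01, a mean of -0.28 and Gapdh at 2515 and 2377 counts and Actb at 3848 and 2316 (a log2 ratio of -0.66).

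Several genes outside these groups had large ratios. Ca2, a carbonic anhydrase, had 9, 40, 29 and 226 counts on days 0, 3, 6 and 9 and was 25.03-fold higher (13.6 to 58.4). Ankrd1, a target of mechanical and YAP signalling, had 4, 7, 3 and 122 counts and was 28.6-fold higher (12.2 to 119). Fam111a was at 0, 4, 11 and 133 counts, at least 46.5-fold higher, with 1 copy of its main tag in the raw day 0 list. Ca2 and Fam111a were above day 0 on days 3 and 6 as well, and Ankrd1 was close to it until day 9. H2afj, a variant histone, went from 17 to 153 counts (9.21-fold higher). Ptp4a2, a phosphatase, went from 27 to 341 counts (13.03-fold higher), but its tags disagreed: 1 tag went from 4 to 290 copies and another from 23 to 51. The row with the symbol Fxr1, which the files describe as 14-3-3 sigma-like, so that symbol and description disagree, went from 6887 to 14785 counts (2.25-fold higher).

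Among genes that fell, Comp, a cartilage and tendon matrix protein, had 176, 45, 13 and 6 counts on days 0, 3, 6 and 9 and was 25.9-fold lower (12.6 to 77.2). Hs3st6, a heparan sulfate sulfotransferase, had 171, 41, 56 and 20 counts and was 7.97-fold lower. Ckmt1b, a mitochondrial creatine kinase, had 245, 59, 28 and 37 counts and was 6.24-fold lower. All 3 had fallen by day 3. Mgst3, a microsomal glutathione transferase, fell from 432 to 71 counts (5.76-fold), and Slc6a9, a glycine transporter, from 131 to 22 (5.57-fold). Pdcd4, a translation repressor, had 2089, 704, 1126 and 293 counts and was 6.78-fold lower, and Nkain3 went from 133 to 18. Both of these rest on tags that end in a run of A.

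Some transcripts were at 0 on day 9. Pnpla5, a lipase of lipid droplets, had 58, 90, 38 and 0 counts on days 0, 3, 6 and 9, at least 18.4-fold lower. Elovl3, a fatty acid elongase of sebaceous glands, had 50, 68, 16 and 0, and Hsd3b6, a steroid dehydrogenase, 50, 46, 9 and 0, each at least 15.9-fold lower. These 3 lipid genes were still present on day 6 and missing on day 9, also from the raw tag list at their main tag. Elovl3 missed the rule where its most abundant tag alone was counted, since that tag had fewer than 50 copies. Dock1, a regulator of cell movement, had 65, 42, 49 and 0 counts, with 1 raw copy on day 9. The Dock1 and Hsd3b6 counts are each those of 1 tag, and variants of these tags beyond the pairs described further on were not tested. The pigment cell genes Tyrp1 (33, 5, 0 and 0 counts) and Pmel (31, 6, 2 and 0) had too few counts for the rule, and each had 1 raw copy on day 9.

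**Figure D4:**
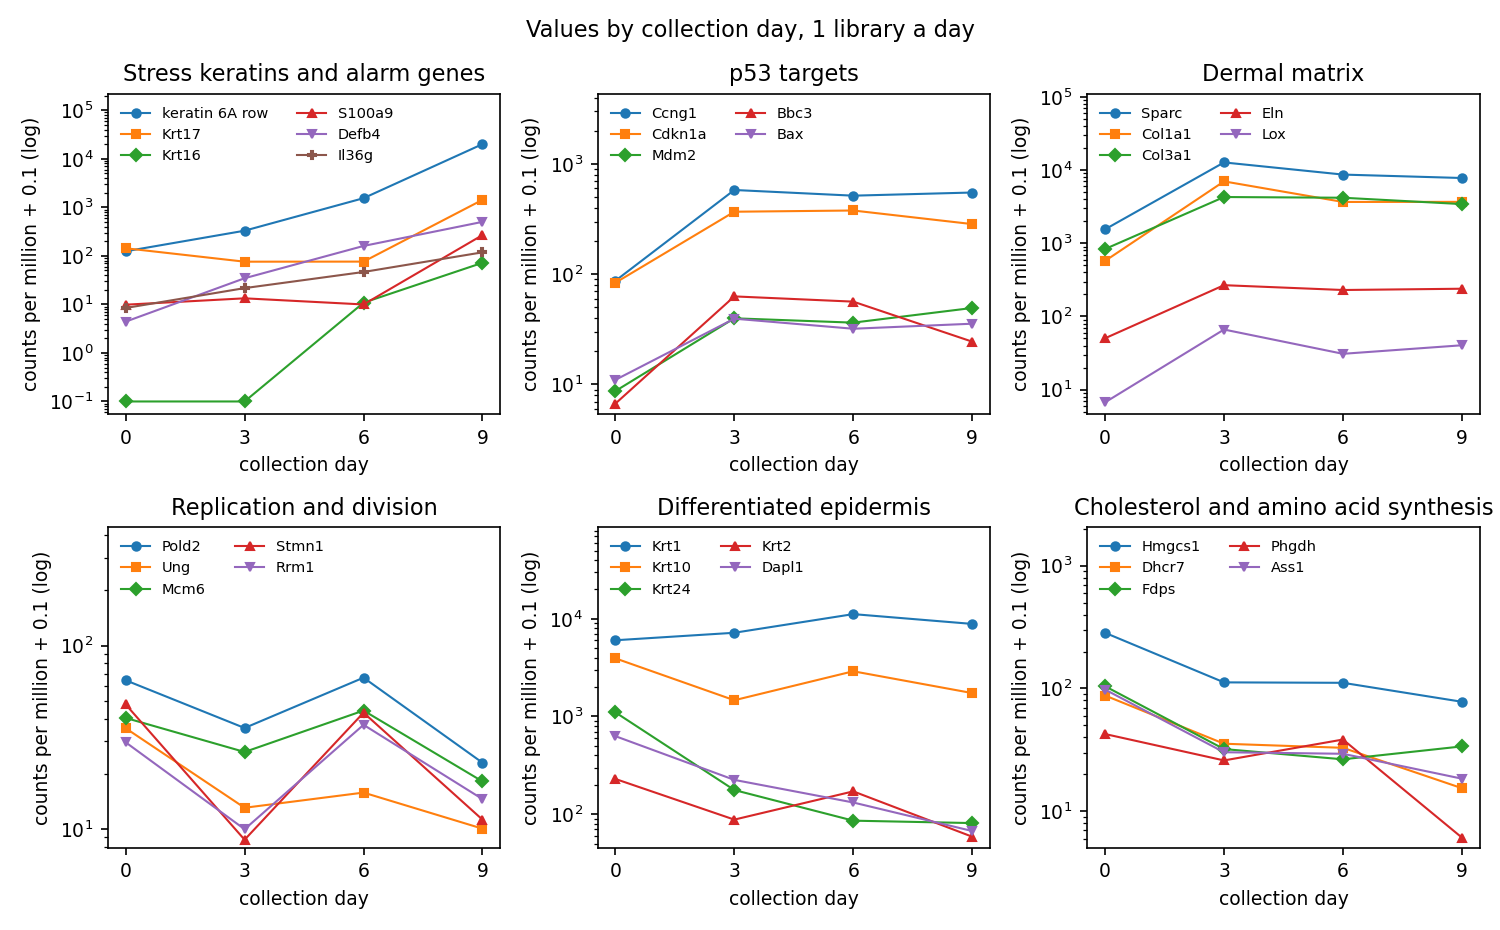
CPM plus 0.1 (log axis) by collection day for 31 genes in 6 panels, each point 1 library, with day 0 and day 9 at the ends and days 3 and 6 between them. Keratin 6A climbed at each collection, p53 targets and matrix genes were up by day 3, replication genes were lowest on day 3 or day 9, and the synthesis genes of the last panel were lower on day 9 than on day 0.

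The tags also showed differences in sequence between the 2 libraries. There were 17 pairs in which a tag of at least 30 copies on day 0 was replaced on day 9 by a tag that differs by 1 base or by a short insertion or deletion, and 9 called rows held such a tag. Where a tag and its variant are counted under different rows, those rows would otherwise read as large changes in expression. Some pairs are shown here, with the bases that differ in capitals.

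Cytochrome oxidase subunit I, day 0: catggatgccccccaccCtac
Cytochrome oxidase subunit I, day 9: catggatgccccccaccTtac
Cytochrome oxidase subunit II, day 0: catgagccGtcccttcactag
Cytochrome oxidase subunit II, day 9: catgagccAtcccttcactag
Ddx39b, day 0: catgcctctctgcgtcaccac
Ddx39b, day 9: catgcctctctCTgcgtcacc
Hspb1, day 0: catggctacatctctcgGtgc
Hspb1, day 9: catggctacatctctcgAtgc

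The subunit I tag of day 0 had 5387 copies on day 0 and 6 on day 9, and its counterpart 0 and 31532. The subunit II tag of day 0 had 3606 and 3 copies, and its counterpart 2 and 6029. In both mitochondrial genes the form of day 9 was also that of days 3 and 6, so the day 0 library stood apart from the other 3. The Ddx39b tag of day 0 had 458 copies on day 0 and none on day 9, while the form with CT inserted, counted under another row, had 0 and 283. Ddx39b itself had 467, 481, 5 and 6 counts, 68.5-fold lower, beside the row change of its tag. The Hspb1 tag of day 0 had 59 and 0 copies, and its counterpart 0 and 171. Both forms are counted in the Hspb1 row, and a further tag of that row went from 7 to 32 copies. Gnl1, a GTP-binding protein gene with 105, 29, 0 and 0 counts and at least 33.3-fold lower on day 9, had no such pair. The search covers only single-base changes and short insertions or deletions inside the tag. Whether Gnl1 carried a variant of another kind was not tested. Eif2s3y, on the Y chromosome, had 0, 118, 92 and 130 counts, and Kdm5d, also Y-linked, 0, 25, 36 and 26. A row with the symbol Ddx3y, described in the files by a human DEAD box polypeptide 3 entry, did not show this pattern, with 1029, 739, 469 and 870 counts, and its symbol and description do not settle whether the X or the Y copy was counted. The gene count of day 0 thus held no tag of Eif2s3y or Kdm5d. The sex and genotype of the rats cannot be told apart from the day, for these tags or for any other ratio given here.

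Ratios also moved with the letters of the tag. Where the most abundant tag ended in at least 8 A, 32 of 87 rows were called lower (36.8%) and 2 higher, with a median log2 ratio of -0.68, against 526 of 5258 lower (10.0%) elsewhere. The tags below show such endings, with the run of A in the last letters.

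Pdcd4: CATGtgaacactgaaaaaaaa
Nkain3: CATGcaaactgaaaaaaaaaa

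Tags with such an ending made up 10.6% of all tags on day 0 and 4.82% on day 9, with 6.19% and 10.1% on days 3 and 6. The number of G and C among the 17 bases after CATG moved with the ratio as well. The median log2 ratio was 0.05 for 0 to 3 G and C, 0.14 for 4 to 5, 0.08 for 6 to 7, -0.09 for 8 to 9, -0.20 for 10 to 11 and -0.22 for 12 to 17. These shifts are small beside the ratios of the stress keratins and matrix genes and comparable to those of the lists with a median near 0. With ratios centred on tags of the same number of G and C, the median was -0.61 for ribosomal protein genes, -0.72 for replication genes and 0.84 for p53 targets. The median of the arginine, polyamine and amino acid synthesis genes moved from -0.26 to -0.01.

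**Figure D5:**
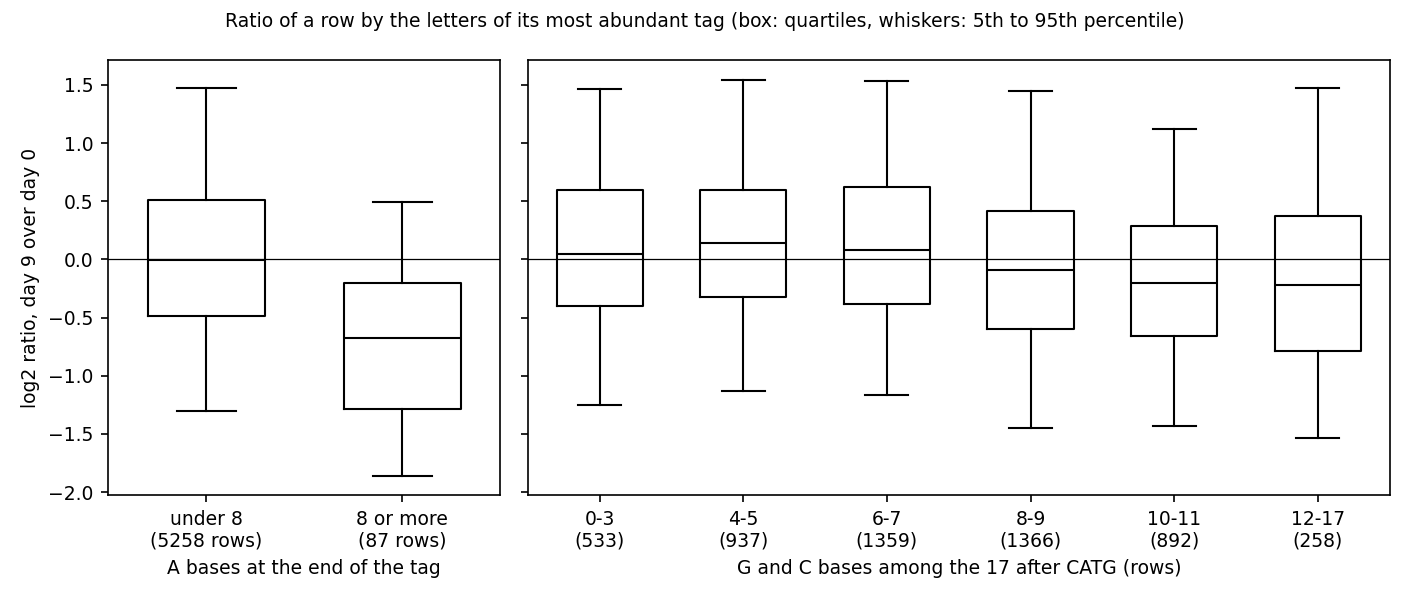
Log2 ratio of day 9 over day 0 (vertical axis) of the 5345 rows by the number of A at the end of their most abundant tag (left, 5258 and 87 rows) and by the number of G and C in it (right, rows in brackets), with boxes at the quartiles, a line at the median and whiskers from the 5th to the 95th percentile. Rows whose tag ends in 8 or more A lie lower, with a median of -0.68, and medians fall from 0.14 at 4 to 5 G and C to -0.22 at 12 to 17.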

How the data were processed

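Each sample came with a gene table and its sequenced tags. The deposited count of a gene is, per the file headers, the sum of copies of its tags, and tags seen under 2 times are not in it. The deposited column headed TPM held CPM over all tags kept, not scaled by length. The submitters' processing notes name the assembly Rnor_6.0. No aligner or annotation release is given in the sources used here. Symbols are those of the files, and no coordinates were used.

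Counts were joined by gene identifier. They were scaled by totals and TMM factors (edgeR 4.0.16, R 4.3.3) over 4 libraries, 1.01 for day 0 and 0.978 for day 9. Ratios used a prior count of 0.5 a library, and exact Clopper-Pearson intervals came from scipy 1.17.1. With 1 library a day no test of edgeR or DESeq2 could be run, and no p-value is given. A library at 0 counts was set to a floor of 3 counts for a lower bound. A list member counted as measured from 10 counts as the mean of both days.

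The comparison, the 47 gene lists and their members were chosen with earlier results of these data known. Named genes were the 15 highest and 15 lowest called genes with at least 100 counts, up to 4 called and 2 uncalled members of each list, the 10 largest rises and falls in CPM, the 5 highest and lowest rows without a symbol, genes at 0 elsewhere or on day 9, and a list of fixed genes. Outside that rule, values already seen led to the naming of Jup, Kdm5d, Ddx3y, Gja1, Prg4 and the stefin-3-like row. A tag counted as replaced where it and a variant had at least 30 copies each on their own day and the other held at most 5% of the pair's copies on that day. The code was checked on simulated data. Other choices were tried at 12 points, and 3 more were added after seeing the data; the end of the text gives their effect.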

Additional observations from a re-analysis of the deposited data

Results flagged for a closer look

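Tags assigned to no gene were outside the comparison of genes. Of 2863 such tags with at least 50 copies on day 0 or day 9, 509 were higher and 383 lower by the same rule, and 11 had at least 1000 copies on day 9 and a ratio of at least 20. The 5 below are those with the most copies on day 9 that do not replace a variant of themselves. They are named by sequence only, with the CATG in capitals, since their transcripts were not analysed here.

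Tag 1: CATGgtgatagtctaataaag
Tag 2: CATGaaagtcctcagaggcct
Tag 3: CATGttgtgatgttacaaaat
Tag 4: CATGgatgcagaagaaccttc
Tag 5: CATGtgcctttgatgaccttt

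The tag CATGgtgatagtctaataaag had 48, 753, 4967 and 28292 copies on days 0, 3, 6 and 9, a 612-fold difference between days 9 and 0. The tag CATGaaagtcctcagaggcct had 35, 412, 510 and 8898 copies (263-fold). The tag CATGttgtgatgttacaaaat had 62, 94, 1313 and 4901 copies (82.3-fold). The tag CATGgatgcagaagaaccttc had 41, 62, 212 and 4494 copies (114-fold), and CATGtgcctttgatgaccttt had 14, 51, 261 and 2599 (188-fold). All 5 had more copies at each later collection, as the keratin 6A row did. Each was flagged because data outside the gene counts showed more copies on day 9 than on day 0.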

How the results depend on the processing

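No paired analysis was possible because there was 1 library a day and the labels hold no replicate numbers, and no replicate could be left out. The number of genes called followed the count minimum: 1183 higher and 1132 lower for a minimum of 10 in the higher library, 201 and 152 for a minimum of 200, and 1348 and 1284 with no minimum, against 571 and 558. Under the other settings run, on scaling, interval, prior count and tags, 524 to 594 were higher and 478 to 620 lower, and among rows with a numeric gene ID alone 462 and 477. With members of a mean of at least 50 counts, p53 targets had 5 higher members in place of 8, replication genes 4 lower in place of 7, and cell death genes 3 higher in place of 6, since fewer members were tested. Of 165 named calls, 144 held in every setting on scaling, interval, prior count, tags and rows that could be run. The changed count minima were not part of that number. A minimum of 200 ends every call with fewer counts in its higher library. Counting the most abundant tag alone ended 13 of the 165 named calls and centring on tag composition 7. An abundant row without symbol or description, 21368 counts on day 0 and 6139 on day 9, changed sign to a log2 ratio of 0.25 without tags ending in at least 8 A; its main tag ends in such a run. The alternatives without such tags, centred on the G and C number of the tag, and without rows with a replaced tag were chosen after seeing the data. Depth limits the mitotic, cytokine, leukocyte and interferon response genes, many of which had fewer than 50 counts in both libraries.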

Other observations

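Genes known from sebaceous glands, listed after their values were seen, lay low on day 9: 7 of 13 measured members were called lower, none higher, and 5 were at 0. Besides Elovl3, Pnpla5 and Hsd3b6, the fatty acid enzyme genes Acsbg1 (257 counts on day 0, 89 on day 9) and Slc27a3 (264 and 46) fell, while Scd1 had 78 and 103 counts and was not called. Awat1, a wax synthase gene, went from 20 counts to 0, below the minimum of the rule. Of 8 measured tendon and cartilage genes, also listed after their values were seen, 1 was lower, Comp, with 6 ratios below 1, 1 member at 0 on day 9 and a median log2 ratio of -0.69. Prg4 had 228 and 111 counts, Fmod 331 and 429 and Tnmd 20 and 33, and these were not called. These values describe 1 library a day, and whether the pieces of skin held the same number of glands or the same depth of tissue was not tested.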
